A study of Mus musculus with 31 samples.

Results

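The mRNA of cortex from knockout mice of both Fmr1 and Rps6kb1 (DKO in the labels) was compared with that of wild-type cortex (WT). The 8 libraries, 4 of each genotype, are those of the 31 in the series that the labels give as RNA sequencing with genotype DKO or WT. Cortex was dissected from mice aged 29 to 34 days and polyadenylated RNA was sequenced. The other mRNA libraries, 4 of the Fmr1 knockout (FXS in the labels) and 4 of the Rps6kb1 knockout (S6K1 in the labels), entered the fit, and 15 ribosome footprint libraries of the 4 genotypes were read as a separate measurement. Each of the labelled batches 5 to 8 held 1 mRNA library of every genotype, so WT and DKO were compared within batches. The labels give no strain, sex, allele or pooling, and nothing in them says whether the 4 libraries of a genotype came from separate animals, so the p-values measure the spread between these samples. Whether mRNA and footprint libraries share animals is not stated either.

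Fmr1 encodes FMRP, an RNA-binding protein that associates with ribosomes and restrains translation of many neuronal mRNAs, and its loss causes fragile X syndrome. Rps6kb1 encodes S6K1, a kinase that the growth regulator mTORC1 activates and that phosphorylates ribosomal protein S6 and other components of the translation machinery. Signalling through this pathway has been described as raised when FMRP is absent, and removing S6K1 in an Fmr1 mutant is a way to ask how much depends on the kinase.

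Both targeted genes were lower in DKO mRNA. Fmr1 (chromosome X, 68678536 to 68717963, GRCm38) stood at 77.6, 64.2, 72.9 and 55.6 CPM (counts scaled to library size) in WT batches 5 to 8 and at 21.6, 14.3, 10.6 and 14.9 CPM in DKO. Rps6kb1 (chromosome 11, 86498869 to 86544885) stood at 55.5, 43.4, 47.3 and 39.5 CPM in WT and at 39.6, 28.9, 34.1 and 28.5 CPM in DKO. Every DKO library was far below every WT library for Fmr1, whereas for Rps6kb1 the highest DKO library just reached the lowest WT library and DKO was lower within each batch. Fmr1 differed by -2.15 on the log2 scale (SE 0.117, adjusted p = 1.7e-10) and Rps6kb1 by -0.50 (SE 0.0772, adjusted p = 0.00228). Fmr1 averaged 16.4 ± 3.96 CPM (SD, n = 4) in FXS against 15.3 ± 4.56 CPM (SD, n = 4) in DKO, and Rps6kb1 averaged 33.6 ± 6.91 CPM in S6K1 against 32.8 ± 5.18 CPM in DKO. Footprints of the same coding sequences were lower too, by log2 fold changes of -3.69 for Fmr1 and -1.44 for Rps6kb1.

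Among 14215 genes tested, 743 (5.23%) passed an adjusted p of 0.05 in edgeR's quasi-likelihood test with batch in the model, 450 (3.17%) higher and 293 (2.06%) lower in DKO. With upper-quartile scaling the split was 309 higher and 347 lower. Most changes were small: the median absolute log2 fold change of the called genes was 0.34, and 19 exceeded a log2 fold change of 1 in size. WT and DKO libraries did not overlap for 294 of the called genes, against 874 (6.15%) of all genes tested, and all 4 within-batch differences had the same sign for 705, against 4003 (28.2%) of all genes tested. The within-batch differences entered the test, so these shares describe the called genes and give no further support.

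How many genes were called rested on the batches. The median within-batch log2 difference of the 450 genes called higher was 0.28, 0.39, 0.41 and 0.23 in batches 5 to 8, and that of the 293 called lower was -0.32, -0.40, -0.50 and -0.38. Batches 6 and 7 held the wider medians for genes called higher, while for genes called lower batch 6 (-0.40) was close to batch 8 (-0.38). These genes were chosen on the same batches, so the medians only describe them. The calls nearly vanished when batch 6 or batch 7 was left out. Without batch 6, 38 genes were called, and without batch 7 there were 3, namely Fmr1, Akr1c18 and Akap13. With no term for batch, 2 genes were called, Fmr1 and Akr1c18, and 1459 genes had an unadjusted p under 0.05. Without batch 5 there were 480 calls, and without batch 8 there were 1509. Single libraries mattered too: 362, 71 and 161 genes were called without the WT library of batch 5, 6 or 7, and 470, 302 and 100 without the DKO library of batch 5, 6 or 7.

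**Figure D1:**
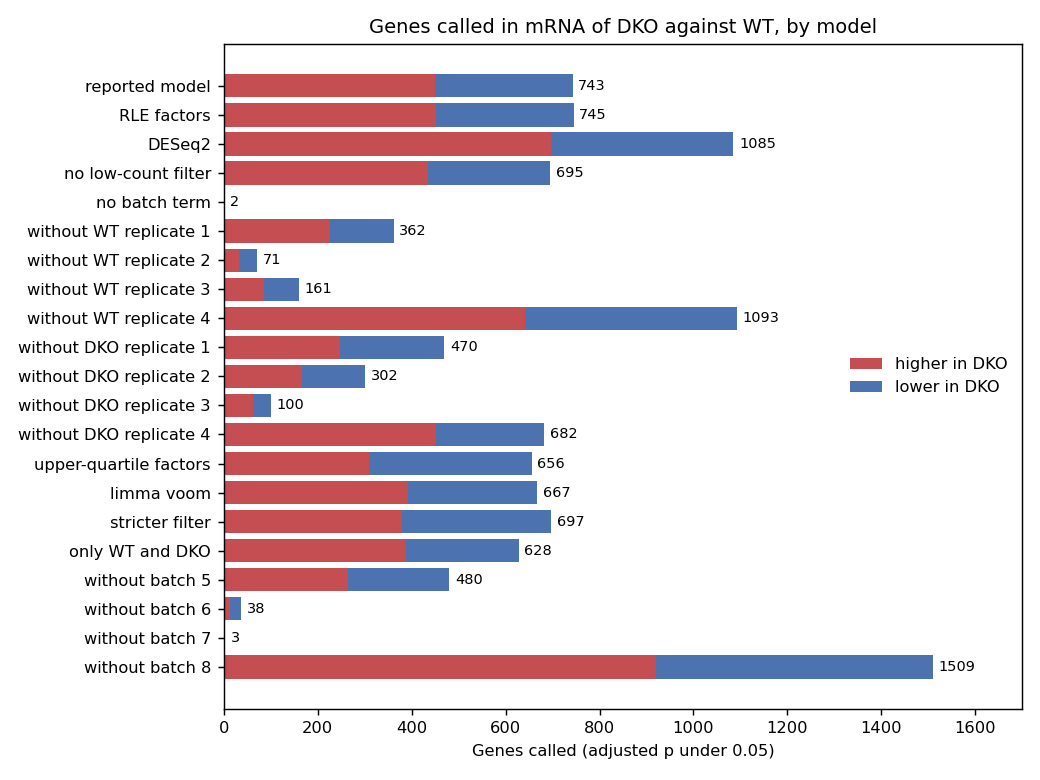
Number of genes called at an adjusted p under 0.05 in mRNA of DKO against WT (x axis) under the reported model and each alternative (y axis), split into genes higher (red) and lower (blue) in DKO. The count is 743 in the reported model, 2 with no batch term, 3 without batch 7 and 1509 without batch 8.

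A batch left out of the fit served as a reading that the calls had not used. Of the 480 genes called without batch 5, 425 (88.5%) moved the same way in the batch 5 pair, against 64.4% of all genes, with median left-out differences of 0.23 and -0.24 for genes called higher and lower. Of the 1509 genes called without batch 8, 1006 (66.7%) moved the same way in the batch 8 pair, against 55.9% of all genes, and there the medians were 0.10 and -0.06 where the fit without it had given 0.33 and -0.38. All 38 genes called without batch 6 moved the same way in the batch 6 pair (69.0% of all genes did), as did the 3 called without batch 7 in the batch 7 pair (67.0%). The targeted genes were counted: Fmr1 was in each of these sets, and Rps6kb1 in each but that without batch 7. The gene sets differ between these readings, and their shares were not tested against each other. Across the 14215 genes, the correlation of within-batch differences was 0.23 between batches 6 and 7, 0.19 between 5 and 7, 0.16 between 5 and 6, 0.13 between 7 and 8, 0.07 between 5 and 8, and 0.01 between 6 and 8. These are correlations across genes, which are not independent replicates.

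**Figure D2:**
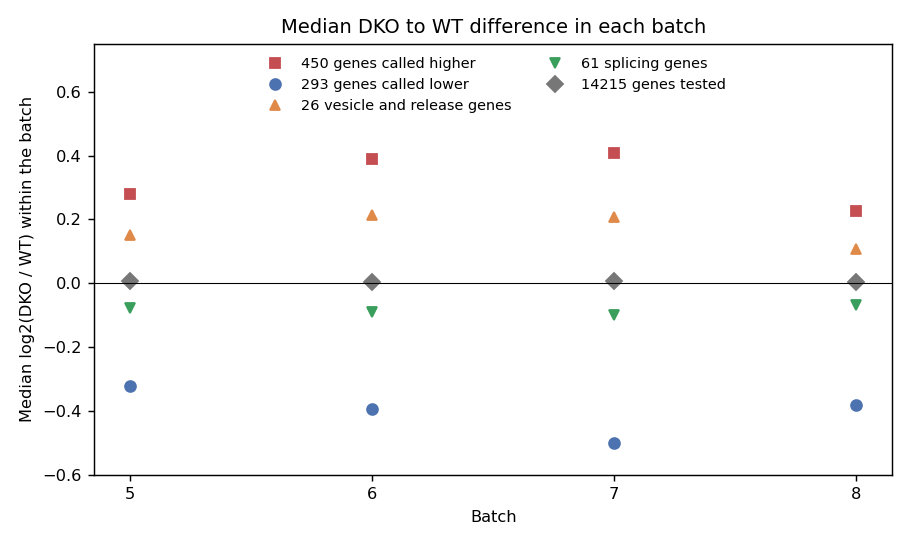
Median within-batch log2 difference of DKO to WT mRNA (y axis) in each labelled batch (x axis) for genes called higher, genes called lower, 26 vesicle and release genes, 61 splicing genes and all 14215 genes tested. All genes lie at 0.01 or nearer to 0 in each batch, while the vesicle genes lie above and the splicing genes below 0 in all 4 batches.

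DKO libraries held 13879709 to 17045503 counts and WT libraries 12134624 to 14012417 counts, and DKO was the deeper library in each batch. The markers of neurons were plentiful in every library, as the label cortex calls for. Markers of microglia summed to 288 CPM in WT and 264 CPM in DKO of batch 5, against 767 to 916 and 782 to 845 CPM in the other batches, and those of endothelium, astrocytes and oligodendrocytes were likewise low in both genotypes of batch 5. Markers of blood (4 genes, globins and Alas2) summed to 1169 to 1780 CPM in WT and 668 to 991 CPM in DKO, with no overlap, although none of the 4 genes was called. Markers of choroid plexus summed to 594 CPM in WT of batch 6 and 85 CPM in DKO of the same batch, and to at most 24 CPM in batches 7 and 8. All 7 choroid plexus markers tested and 11 of 12 endothelial markers had a negative log2 fold change in DKO, with medians of -0.95 and -0.28. No marker of these lists was at 0 in all libraries. The part of blood, vessel and choroid plexus RNA in the gene results was not tested, and in bulk tissue fewer cells of a type and less RNA per cell cannot be told apart.

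**Figure D3:**
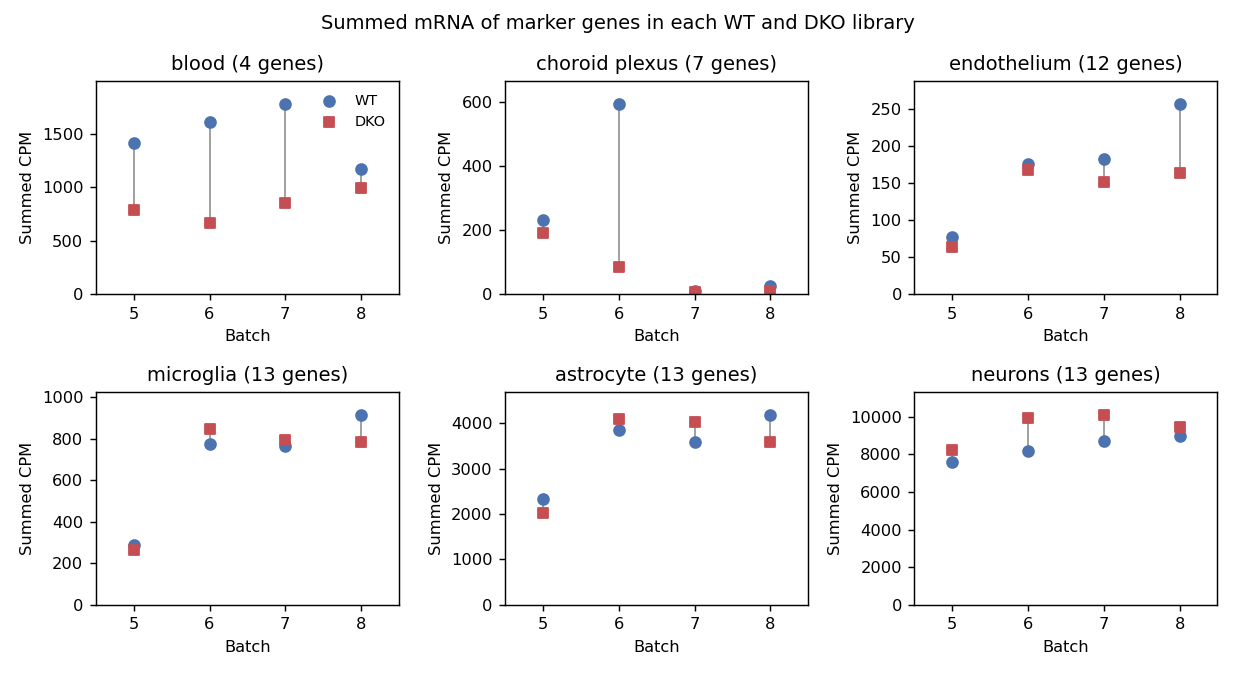
Summed mRNA in CPM (y axis) of marker genes for blood, choroid plexus, endothelium, microglia, astrocytes and neurons in each WT (circle) and DKO (square) library by labelled batch (x axis). The WT library is above the DKO library in all 4 batches for blood and below it in all 4 for neurons, and batch 5 is low for microglia, endothelium and astrocytes.

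Of 26 genes of synaptic vesicles and transmitter release, 9 passed the test, all of them higher in DKO (34.6%, against 3.17% of all genes called higher). The list's median log2 fold change was 0.22 with 23 positive values, against -0.003 for all genes. Its median within-batch difference was 0.15, 0.21, 0.21 and 0.11 in batches 5 to 8. No member was called without batch 6, without batch 7 or with no batch term, 5 were called with upper-quartile scaling and 13 without batch 8. This list and those below were chosen with earlier results of these data known. Their shares beside that of all genes are therefore descriptions and give no support for a change of a list.

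Syngr1 (synaptogyrin 1, a vesicle membrane protein) was at 118, 143, 155 and 158 CPM in WT and at 154, 187, 203 and 212 CPM in DKO. The 4 batches gave nearly equal rises, although the DKO library of batch 5 was no higher than the upper WT libraries, and the fitted rise was 0.40 on the log2 scale (SE 0.0781, adjusted p = 0.0079). Syn1 (synapsin I, which tethers vesicles to the cytoskeleton) was at 463, 619, 618 and 615 CPM in WT and at 626, 868, 772 and 690 CPM in DKO. All DKO libraries lay above all WT libraries, the lowest DKO library by little, with a log2 fold change of 0.35 (SE 0.0778, adjusted p = 0.0132). Syp (synaptophysin) was at 499, 868, 932 and 900 CPM in WT and at 593, 1131, 1144 and 1131 CPM in DKO, so batch 5 was low in both genotypes and DKO was higher in each batch (log2 fold change 0.31, adjusted p = 0.0155).

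Rph3a (rabphilin, a Rab3 effector) rose by a log2 fold change of 0.31, Vamp2 (the vesicle SNARE) by 0.28, Syngr3 by 0.27 and Sv2a by 0.24. Vamp2 was higher in every DKO library than in every WT library. Bsn (bassoon, a scaffold of the release site) was called at 0.32 but was lower in DKO than in WT of batch 8, at 202 against 222 CPM. The 17 members that missed the threshold had log2 fold changes from -0.08 for Pclo to 0.28 for Unc13a.

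The postsynaptic scaffold list had 4 of 23 members higher (17.4%, against 3.17% of all genes) and none lower, with 21 positive values and a median of 0.17. Those called included Nlgn2 (neuroligin 2, an adhesion protein of inhibitory synapses) at 0.33, Dlgap4 at 0.25 and Camk2b (a subunit of the calcium/calmodulin kinase) at 0.25. Every DKO library exceeded every WT library for Camk2b, and WT and DKO libraries overlapped for Nlgn2 and Dlgap4. None of the 4 was called without batch 5, 6 or 7.

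Glutamate receptor channels had 1 of 20 members called (5.0%, against 5.23% of all genes). This was Grik3 (a kainate receptor subunit), at 18.8, 15.9, 19.8 and 20.2 CPM in WT and 26.1, 21.5, 34.1 and 33.6 CPM in DKO. Every DKO library was above every WT library, and the fitted rise was 0.61 on the log2 scale (SE 0.108, adjusted p = 0.00444). Of 14 metabotropic glutamate receptor and Homer genes, 1 was called (7.14%), Ncdn (neurochondrin, which binds these receptors), which rose by 0.25. Of 14 GABA-A receptor genes, 1 was called (7.14%), Gabra3, which fell by 0.30 on the log2 scale. Potassium channels had 1 of 73 called (1.37%; Kcnj11, higher by 0.29) and sodium and calcium channels 1 of 31 (3.23%; Cacnb4, higher by 0.28). Both shares were below the 5.23% of all genes called in either direction, and that of sodium and calcium channels was near the 3.17% called higher.

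Among 13 markers of neurons, most of them of excitatory neurons, 4 were higher (30.8%, against 3.17% of all genes), among them Slc17a7 (the vesicular glutamate transporter of cortical excitatory neurons), Tbr1 (a transcription factor of cortical projection neurons) and Tubb3 (a neuronal tubulin). Slc17a7 was at 1446, 1961, 2159 and 2309 CPM in WT and at 1587, 2652, 2936 and 2843 CPM in DKO, with a log2 fold change of 0.33 (SE 0.075, adjusted p = 0.0155). DKO was higher in each batch, while both batch 5 libraries were the lowest of their genotype. The summed neuronal markers were 7583, 8168, 8721 and 8979 CPM in WT and 8241, 9956, 10120 and 9473 CPM in DKO, so they moved in the same direction as the vesicle and scaffold lists in every batch. Their part in those lists' change was not tested. Snap25 (-0.01) and Neurod6 (-0.02) were the members with negative values.

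Of 16 cortical layer markers, 3 were called (18.8%, against 3.17% of all genes called higher), all higher: Cplx3 at 0.57, Ctgf at 0.44 and Tle4 at 0.34. These are genes expressed in deep layers, but the list holds other deep-layer genes, and none of those was called. The list had 12 positive and 4 negative values, and Ctgf was called under 8 of 20 alternatives. Cplx3 (complexin 3) was at 15.4, 18.9, 18.1 and 16.5 CPM in WT and at 27.3, 26.8, 25.004 and 22.4 CPM in DKO. The DKO libraries were all above the WT libraries, most widely in batch 5 (SE 0.11, adjusted p = 0.0079).

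Of 13 interneuron markers, 1 was called higher and 1 lower (15.4% called, against 5.23% of all genes). Cort (cortistatin, a neuropeptide of some interneurons) was at 6.44, 6.94, 5.25 and 6.82 CPM in WT and at 8.08, 12.6, 14.5 and 13.6 CPM in DKO, the widest rise among the genes named by rule (log2 fold change 0.91, SE 0.161, adjusted p = 0.00444). Pvalb (parvalbumin, of fast-spiking interneurons) was at 103, 93.6, 82.2 and 64.4 CPM in WT and at 71.5, 71.7, 62.8 and 53.3 CPM in DKO. It was lower in DKO of each batch, with overlap between the genotypes across batches, at a log2 fold change of -0.39 (SE 0.0966, adjusted p = 0.0235). The other 11 interneuron markers, Sst (0.24) and Gad1 (-0.09) among them, missed the threshold.

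**Figure D4:**
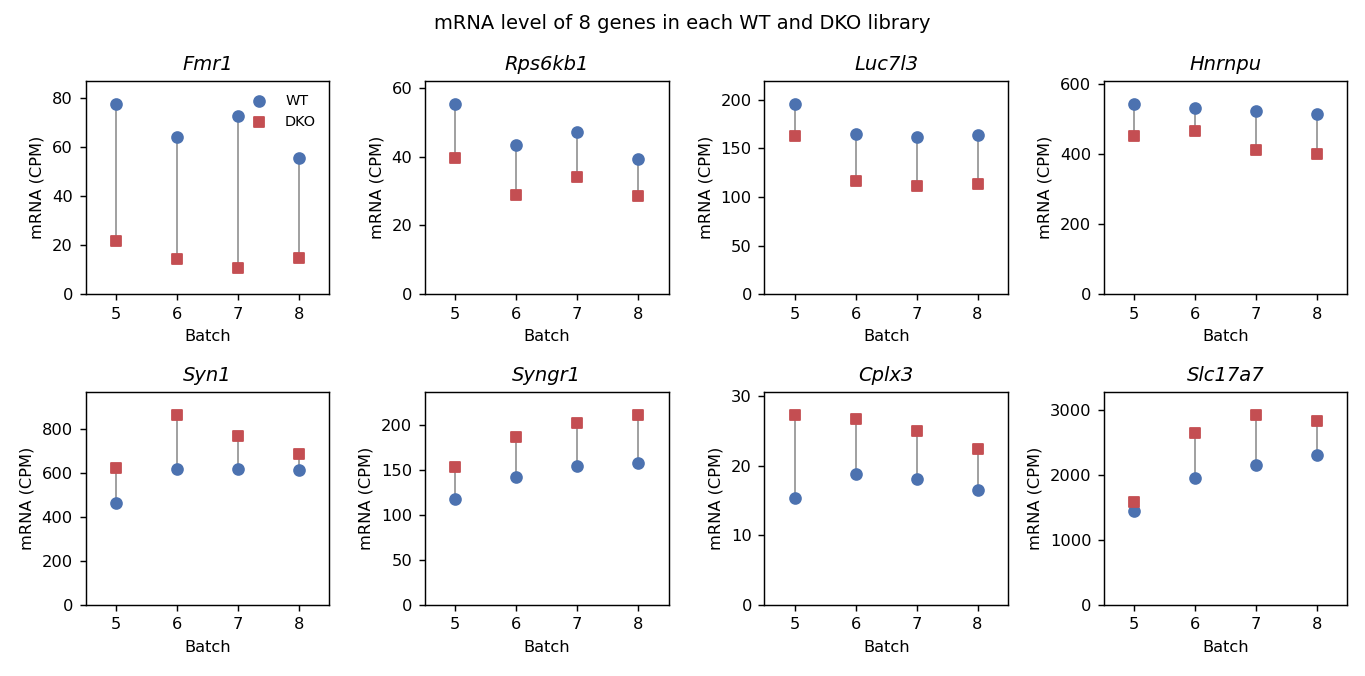
mRNA level in CPM (y axis, from 0) of Fmr1, Rps6kb1, Luc7l3, Hnrnpu, Syn1, Syngr1, Cplx3 and Slc17a7 in each WT (circle) and DKO (square) library by labelled batch (x axis). The DKO library is below the WT library of its batch for the first 4 genes and above it for the last 4.

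Among the 36 lists, that of the splicing machinery had the most members called lower in DKO. Of 61 tested, 11 were called (18.03%, against 5.23% of all genes), of which 10 fell and 1 rose, with 43 negative values and a median log2 fold change of -0.13, and the within-batch medians were -0.08, -0.09, -0.10 and -0.07. DESeq2 called 12 members lower and upper-quartile scaling 11. The count was 9 without batch 5, 9 without batch 8, 1 without batch 6 and 0 without batch 7 or with no batch term.

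Luc7l3 (a LUC7-like protein tied to the U1 snRNP, which recognises the 5′ splice site) was at 196, 165, 162 and 164 CPM in WT and at 163, 117, 111 and 114 CPM in DKO. Both batch 5 libraries stood above the others of their genotype, and DKO was lower in each batch (log2 fold change -0.46, SE 0.0657, adjusted p = 0.0019). Its relative Luc7l2 was at 122, 112, 101 and 119 CPM in WT and at 107, 90.8, 82.9 and 87.9 CPM in DKO (log2 fold change -0.30, adjusted p = 0.0132). Hnrnpu (a nuclear RNA-binding protein) was at 542, 531, 521 and 514 CPM in WT and at 452, 464, 411 and 400 CPM in DKO, with every DKO library below every WT library (-0.29, SE 0.0628, adjusted p = 0.0128).

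Pnisr had the widest fall of the list, at 226, 161, 145 and 194 CPM in WT and 206, 111, 95.2 and 109 CPM in DKO (-0.51, SE 0.115). Smaller falls were seen for Srsf11 (-0.33), Prpf4b (-0.30), Prpf38b (-0.30), Rbm25 (-0.29), Snrnp70 (the U1 snRNP 70 kDa protein, -0.29) and Rbm39 (-0.27). Hnrnpa0 rose by 0.36. Outside the list, Rnpc3, a protein of the minor spliceosome, fell by 0.75 on the log2 scale, and Smg1, a kinase of nonsense-mediated decay, fell by 0.41 on the log2 scale and was the only one of 16 decay genes called.

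Promoter sequence is shown for 2 vesicle genes that rose and 2 splicing genes that fell, as examples of the 2 lists that moved in opposite directions. Each is 100 bases before to 30 bases after the start of the gene in RefSeq (GRCm38.p6), 5′ to 3′ on the gene's strand, and capitals mark matches, on either strand, to GGGCGG (the GC box of Sp factors) or GCGCATGC (an NRF1-type motif, whose matches on the 2 strands overlap).
Syngr1, chr15:80091234-80091363, plus strand: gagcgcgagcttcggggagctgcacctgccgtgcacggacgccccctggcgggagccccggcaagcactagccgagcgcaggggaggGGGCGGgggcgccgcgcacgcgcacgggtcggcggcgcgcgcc
Syp, chrX:7638480-7638609, plus strand: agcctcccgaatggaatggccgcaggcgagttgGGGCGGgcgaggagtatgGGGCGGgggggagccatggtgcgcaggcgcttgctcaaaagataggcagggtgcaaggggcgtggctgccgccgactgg
Prpf38b, chr3:108911700-108911829, minus strand: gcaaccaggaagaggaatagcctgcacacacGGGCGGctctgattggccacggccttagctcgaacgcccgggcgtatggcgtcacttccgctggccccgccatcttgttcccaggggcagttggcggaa
Snrnp70, chr7:45395713-45395842, minus strand: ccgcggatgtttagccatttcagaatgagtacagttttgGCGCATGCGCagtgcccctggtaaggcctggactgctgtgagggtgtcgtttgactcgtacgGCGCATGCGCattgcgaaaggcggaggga
The GC box was found in the promoters of both vesicle genes and of Prpf38b, and 35.9% of 27025 RefSeq promoters of 300 bases hold it, as do 63.5% of the 10751 that matched a gene tested here. The NRF1-type motif was found at 2 places in that of Snrnp70 and is held by 2.80% of all the promoters and 5.21% of those that matched a tested gene. TGACGTCA (held by 1.85% of the promoters) and CCGGAAG (9.14%) were searched as well and had no match in these windows. The windows of the called genes Syn1, Sv2a and Rbm39, also at the gene start, held no match to any motif searched and are not shown. The windows shown thus do not stand for their lists. Fewer than 80% of the called genes had a promoter in the table, so no share over them is given.

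Genes known to act with the 2 targeted ones were called in both directions. Of 27 genes of S6K and mTORC1 signalling, 5 were called (18.5%, against 5.23% of all genes, with the targeted gene among the 5): 3 fell, namely Rps6kb1, Pdcd4 (-0.28, a translation inhibitor that S6K1 marks for breakdown) and Rragc (-0.34, a Rag GTPase), and 2 rose, namely Lamtor1 (0.30, a lysosomal anchor of the Rag GTPases) and Akt1s1 (0.34, PRAS40, an inhibitor of mTORC1). The paralog Rps6kb2 had a log2 fold change of -0.21 (adjusted p = 0.21), Mtor of 0.19 (adjusted p = 0.126), and the S6K1 substrates Rps6, Eif4b and Eef2k of -0.10, 0.02 and 0.01. Among 15 genes for FMRP and proteins found with it, 3 were called (20%): Purb (0.45) and Pura (0.33) rose besides the fall of Fmr1, while the FMRP paralogs Fxr1 (-0.08) and Fxr2 (0.03) and the partner Cyfip1 (-0.09) missed the threshold. Of 27 mRNAs described as bound by FMRP, 1 was called (3.70%), Map1b, a microtubule-associated protein. Map1b was at 252.8, 245.01, 285 and 259 CPM in WT and 371, 285, 291 and 309 CPM in DKO. Its rise was widest in batch 5 and slight in batch 7 (0.27, SE 0.0752, adjusted p = 0.0404), and it was called under 6 of 20 alternatives.

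The genes of the translation machinery held no call. None of 78 cytosolic ribosomal protein genes passed (median -0.05), none of 77 mitochondrial ribosomal protein genes (-0.01) and none of 64 translation factors (-0.02). Respiratory chain genes had 4 of 76 called, all higher (Uqcrq 0.31, Atp5d 0.30, Atp5g1 0.28 and Cyc1 0.27), a share close to that of all genes. Adrm1 (0.24, a ubiquitin receptor) was the only one of 34 proteasome genes called (2.94%), and it was called under 4 of 20 alternatives. Motor and cytoskeletal genes had 4 of 42 higher (Kif17 0.30, Kif1a 0.29, Map1b 0.27 and Mapt 0.26) and 2 lower (Macf1 -0.30 and Dync1i2 -0.29). Their share called was 14.3%, against 5.23% of all genes. Of 66 chromatin genes, Chd5 (0.31), Kdm5c (0.29) and Kdm4b (0.25) rose and Kdm3a fell by 0.37 on the log2 scale, a share (6.06%) near that of all genes. Srebf2 (0.30), the transcription factor of cholesterol synthesis, and Mvd (0.31), an enzyme of it, were higher among 21 genes (9.52% called, against 5.23% of all genes). However, the within-batch median of that list ran from -0.10 in batch 5 to 0.45 in batch 8. Immediate early, heat shock, stress response, circadian, astrocyte, microglia, striatum, thalamus and hippocampus lists held no call. The immediate early median was -0.25 and stood at -0.86 in batch 8.

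Of 18 oligodendrocyte markers, 1 rose, Olig1 (0.39, a lineage transcription factor), and 1 fell, Aspa (-0.61, aspartoacylase). The share called was 11.1%, against 5.23% of all genes. Aspa was at 20.9, 27.5, 20.7 and 19.8 CPM in WT and at 16.8, 12.8, 12.6 and 15.98 CPM in DKO, with no overlap. Slco1a4, a transporter of brain endothelium, was the only endothelial marker called of 12 tested (8.33%), at -0.63 (SE 0.151, adjusted p = 0.0226).

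Beside the lists, several single genes stood out by the size or the p of their change. Kctd4 (36.1, 25.4, 28.9 and 30.3 CPM in WT, 23.3, 18.5, 17.8 and 19.1 CPM in DKO) and Pls3 (plastin 3, an actin-bundling protein; 124.2, 160, 168 and 156 CPM in WT, 93.5, 117, 109 and 114 CPM in DKO) were, with Luc7l3 and Akr1c18, the genes of smallest adjusted p after Fmr1. Neither overlapped between the genotypes, and their log2 fold changes were -0.62 (SE 0.0893) and -0.48 (SE 0.0726). Akr1c18, of an aldo-keto reductase family whose close members can share reads, was at 7.94, 8.05, 5.50 and 6.96 CPM in WT and at 3.40, 3.10, 2.94 and 3.74 CPM in DKO. It was lower in every DKO library than in any WT library, at -1.10 (SE 0.165, adjusted p = 0.0019).

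Further falls were those of 4930447C04Rik (-1.32), Serpinb1a (-0.83, of a family with close copies), Trim59 (-0.81), Echdc2 (-0.80), Ryr1 (-0.80, a calcium release channel), S100a11 (-0.78) and Anln (-0.76, anillin). Further rises were those of Pcdha5 (0.68, a protocadherin whose constant exons are shared with its cluster), Mapk1ip1l (0.64), Lrrc3 (0.63), the uncharacterised 4930404N11Rik (0.62), Rpl31-ps12 (0.61, a pseudogene whose reads cannot be told from those of its parent), Chadl (0.60), Rad51d (0.60, a DNA repair protein) and Ufsp1 (0.58). Below the level the rule asks for, and picked after their values were seen, Dnah6 (an axonemal dynein) had 278 counts over the 4 WT libraries and 54 over the 4 DKO libraries, Slfn8 had 69 and 12, Kiss1 had 48 and 11, and Epx had 47 and 2. Myh4, a myosin of skeletal muscle, had 88 and 280.

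The neighbours of the targeted genes were counted. Of the 50 tested genes on each side of Rps6kb1, 9 of 100 were called, 4 higher and 5 lower, Rad51d, Luc7l3, Slfn8, Slfn2, Epx and Olfr464 among them. Around Fmr1, 9 of 100 were called, 6 higher and 3 lower, Gabra3 among them. The share among all genes was 5.23%, and the difference from it was not tested. Rad51d was at 12.9, 14.99, 13.2 and 11.2 CPM in WT and at 18.4, 21.9, 20.4 and 18.3 CPM in DKO, above WT without overlap. Its log2 fold change against WT was 0.60 in DKO, 0.64 in S6K1 and 0.11 in FXS, comparisons that share the WT libraries.

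The changes of DKO were set beside those of the single knockouts, which share the WT libraries with it. The genes called higher in DKO had a median log2 fold change of 0.33 in DKO, 0.21 in FXS and 0.11 in S6K1, and those called lower had -0.40, -0.19 and -0.17. Since the genes were chosen on DKO, the smaller values elsewhere are a description. Whether DKO differed from the sum of the single knockouts was tested as an interaction, and edgeR called 0 of 14215 genes (0.0%), as did DESeq2. An unadjusted p under 0.05 was found for 497 genes in edgeR and 416 in DESeq2, where 711 are expected with no effect. The median SE of an interaction was 0.14 on the log2 scale, so a departure of the size of most DKO changes was not detectable for a single gene. The interaction was 0.17 for Syngr1, -0.03 for Syn1, 0.02 for Luc7l3, 0.28 for Cort, 0.43 for Cplx3 and -0.17 for Kctd4. Among the named genes it was widest for Akr1c18, at 0.59 (SE 0.237), and it was -0.29 for Map1b.

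**Figure D5:**
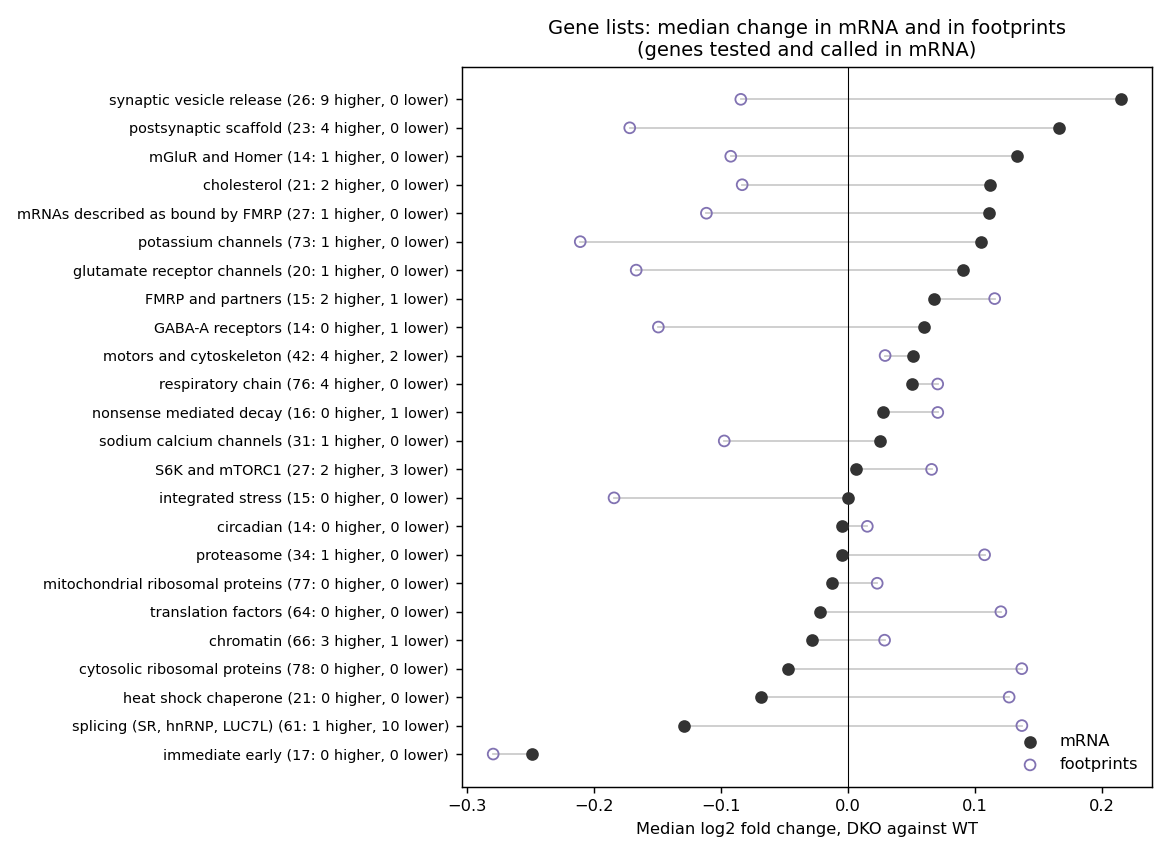
Median log2 fold change of DKO against WT (x axis) in mRNA (filled) and in ribosome footprints (open) for each gene list (y axis, with the number tested and called in mRNA). Vesicle and scaffold lists lie above 0 in mRNA and below 0 in footprints, and the splicing list lies the other way round.

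Footprints gave a separate measurement of DKO against WT, with no library in common. There were 3 DKO and 4 WT footprint libraries, and only footprint batches 3 and 4 held both genotypes. Of 13953 genes tested there, 51 (0.366%) were called. Over the 13654 genes in both tests, 42.6% had the same sign in mRNA and footprints, while 242 of 735 mRNA calls that could be read there did (32.9%). The share was 28.1% for genes called higher in mRNA, whose median footprint change was -0.11, and 40.4% for genes called lower, whose median footprint change was 0.06. More of the called mRNA changes thus had the opposite sign in footprints than the same sign, at footprint medians near 0.

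The vesicle list had a median footprint change of -0.08 and the postsynaptic scaffold list of -0.17, against 0.22 and 0.17 in mRNA, and the splicing list had 0.14, with 48 of 61 values positive, against -0.13 in mRNA. None of the members of these 3 lists was called in footprints. Slc17a7 had 0.33 in mRNA and -0.30 in footprints, Syngr1 0.40 and -0.26, Luc7l3 -0.46 and 0.21, and Luc7l2 -0.30 and 0.29. Batches, preparation and library type differ between the 2 measurements, and their part in the opposite signs was not tested.

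Of the 51 footprint calls, all on genes tested in mRNA, 5 were also called in mRNA, where 5.23% of all genes were. All 5 were lower in both: Fmr1, Rps6kb1, Pde8a (-0.47 in mRNA and -1.04 in footprints, a cyclic AMP phosphodiesterase), Igtp (-1.17 and -1.01, an interferon-induced GTPase) and Fam214a (-0.37 and -0.65). The targeted genes are among the 5, and the overlap was not tested against that share. Without DKO footprint replicate 3, only Fmr1 and Rps6kb1 were called in footprints. In mRNA, Pde8a was called under 11 of 20 alternatives, Igtp under 10 of 19 and Fam214a under 17 of 20. Fam214a was at 68.7, 59.2, 59.0 and 60.5 CPM in WT mRNA and at 50.7, 43.9, 45.8 and 50.7 CPM in DKO mRNA. Its genotypes did not overlap, with the WT library of batch 5 standing highest. Igtp was at 5.34, 7.26, 6.08 and 6.38 CPM in WT and at 1.52, 2.31, 3.09 and 4.52 CPM in DKO, all below the WT libraries.

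Gene length moved with the differences of single batches. Of the genes tested, 95.1% had a RefSeq entry and were divided into 5 classes of equal size by genomic span. The shortest class (334 to 8635 bases) held 108 genes called higher and 33 lower among 2703. The longest (80156 to 2390387 bases) held 70 and 59 among 2703. Of all 14215 genes tested, 450 (3.17%) were called higher and 293 (2.06%) lower. The median within-batch difference of the shortest class was -0.002, 0.07, 0.16 and -0.03 in batches 5 to 8, and that of the longest was 0.03, -0.01, -0.06 and 0.04. The short genes were thus high in DKO of batch 7 and not of batches 5 and 8. The part of span in the gene results was not tested.

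In the authors' deposited table of DKO against WT mRNA, 1046 of 11128 genes with an adjusted p were under 0.05, 634 higher and 412 lower. The 707 genes shared with the calls given here were 95.2% of these calls and 67.6% of the authors' genes, and all 707 had the same sign.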

How the data were processed

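Per the submitters' processing notes, cutadapt 2.0, Bowtie2, TopHat2, RSEM and the mm10 build were used; their order and settings are not given in the sources used here. The deposited values are whole-number counts over coding sequence, 1 column per library and 20436 genes. Whether the authors rounded them from RSEM estimates is not stated, and they were treated as counts. The authors' deposited comparison table gave log2 fold changes and adjusted p-values. Low-count genes were dropped by filterByExpr, libraries were scaled with TMM factors, and all 16 mRNA libraries were fitted with edgeR 4.0.16 (robust quasi-likelihood F-test, genotype and batch, Benjamini-Hochberg adjustment over all genes). CPM values use the TMM-scaled library sizes. SE is the log2 fold change divided by the root of F. Footprint counts were fitted alike, although not every footprint batch held every genotype. The model was checked on simulated data. Labels pair WT and DKO by batch: deviations from genotype means correlated at 0.56, 0.04, 0.13 and 0.08 within batches 5 to 8 and at -0.29 to 0.17 (median -0.06) over 12 pairs of different batches. Of the within-batch values, only that of batch 5 lay above the range of different batches. Named were the 2 targeted genes, the 10 widest rises and falls with at least 5 CPM and 1 sign in 4 batches, the 4 smallest adjusted p, up to 3 called members per list, and up to 6 genes called in both assays. Members and lists were chosen with earlier results of these data known. Within-batch differences used a prior count of 0.5. Replicates differed beyond counting noise (chi-square per degree of freedom 4.67 to 45.1 over 12 pairs). Some called genes are not reported here.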

Additional observations from a re-analysis of the deposited data

Results flagged for a closer look

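Among 160 groups of 4 WT or DKO libraries examined (named genes in CPM and summed marker lists), 18 held a library whose gap to the nearest other library was wide for the group's range, where chance gives about 1 in 20. Most of these libraries were of batch 5. In WT of batch 5, Luc7l3 stood high at 195.9 CPM, Cacnb4 high at 113.3 CPM and Fam214a high at 68.7 CPM, while Syn1 stood low at 462.8 CPM, Dync1i2 low at 225.2 CPM and Ctgf low at 9.52 CPM. In DKO of batch 5, Luc7l3 stood high at 163.03 CPM, Ctgf low at 13.7 CPM and Slco1a4 low at 7.84 CPM. Summed markers in that DKO library were low for microglia at 264.02 CPM, endothelium at 63.5 CPM and interneurons at 877.7 CPM, and high for striatum at 785.4 CPM.

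In batch 6, Aspa stood high in WT at 27.5 CPM, and in DKO Camk2b stood low at 500.6 CPM and Pde8a high at 19.6 CPM. Atp5g1 stood low in WT of batch 7 at 235.9 CPM, and Dlgap4 high in WT of batch 8 at 386.2 CPM.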

How the results depend on the processing

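The 743 mRNA calls became 2 with no replicate block (batch left out), 480 without batch 5 and, in alternatives chosen after seeing the data, 38, 3 and 1509 without batch 6, 7 and 8. Leaving out 1 WT or DKO library gave 71 to 1093. RLE factors, upper-quartile factors, DESeq2, limma voom, no filter, a stricter filter and a fit of WT and DKO alone gave 628 to 1085. The 51 footprint calls became 6 with no replicate block, 290 with DESeq2 and 103, 14, 10 and 33 without WT replicate 1, 2, 3 and 4 and 8, 3 and 2 without DKO replicate 1, 2 and 3. The share of the same sign in footprints was 18.2% with no replicate block in the footprint fit. The interaction had 0 calls under each alternative run. The causes of these moves were not tested. All 67 named genes kept their sign under the alternatives run, and 2, 46, 11, 2 and 61 of them were called with no block and without batch 5, 6, 7 and 8. Of 20 alternatives, Adrm1 was called under 4, Kcnj11 under 5, Map1b under 6, and Lrrc3, Pura, Mvd and Cacnb4 under 7 each. The alternative on protein length was not run, since no protein lengths were used here; classes by genomic span were added after seeing the data.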
